A study of Homo sapiens with 4 samples.

Results

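A set of 9 genes of the interleukin-1 system was examined in H226, an established human cell line that the labels describe as lung squamous cell carcinoma. They were chosen by symbol from the 25369 genes of the count table: the ligands IL1A, IL1B, IL18 and IL33, the antagonist IL1RN, the receptors IL1R1, IL1RAP and IL1R2, and the protease CASP1. All 9 were found. The shControl group held 2 cultures with a doxycycline-inducible non-targeting short hairpin RNA, and the shp63 group held 2 cultures with an inducible hairpin against p63, the basal epithelial transcription factor encoded by TP63. Doxycycline was given to all 4 cultures at 1 µg/mL, over 6 days, so the inducer was common to both groups, and polyadenylated RNA was sequenced. The labels name 1 construct per group, so the hairpin and its target cannot be told apart. The submitters call the samples of a group independent biological replicates.

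Interleukin-1 alpha and beta bind the receptor IL1R1, which then recruits the accessory protein IL1RAP and signals through MYD88 and IRAK kinases to NF-kB. IL1RN encodes a ligand that occupies IL1R1 without signalling, and IL1R2 encodes a decoy receptor that lacks the signalling domain. CASP1 cleaves the precursors of interleukin-1 beta and interleukin-18, whereas interleukin-1 alpha and interleukin-33 can act as alarmins released from damaged epithelium. Keratinocytes and squamous epithelia are known for storing interleukin-1 alpha and making the antagonist.

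The libraries held 51926832 to 53924761 counted reads, so that 1 CPM (a normalised read count, scaled by library size with TMM factors) rested on 50.1 to 55.5 reads. Replicates differed by more than sampling noise in both groups, with a chi-square per degree of freedom of 3.30 in shControl and 3.60 in shp63, and were kept as separate samples. TP63 had 7533 and 7364 reads in shControl and 1596 and 1530 in shp63, a log2 fold change of -2.16 (SE 0.041). The 10 squamous epithelial markers were all tested, and 9, with TP63 itself among them, were lower in shp63, against 37.1% of all tested genes. KRT6A was higher, at 14.0 and 18.5 CPM. KRT17 was at 3897 and 3061 CPM and KRT5 at 757 and 148 CPM. SOX2, one of those markers, had 14 and 11 reads in shControl and 1 and 3 in shp63. It passed the filter on low counts only through shControl. Among markers of other cells, AIF1, TYROBP, CD163 and MS4A1 (leukocytes), DCN (fibroblasts), PDPN (mesothelium) and CLDN5 (endothelium) had no read in any library, whereas others of the same lists were abundant, among them UPK3B (215 and 302 CPM), MSLN (132 and 330), COL1A1 (98.7 and 70.7), CDH5 (56.7 and 187) and CD14 (6.17 and 43.9).

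The results turned on a pair of ligands that fell together and a pair of receptors that rose together, and the sequences before their start sites are shown here for that reason. Each is the 250 bases before the RefSeq start that coincided with the start of the canonical GENCODE transcript, taken from RefSeq windows (GRCh38.p14) and located in GRCh37 by exact match. IL1A and IL1B lie on the minus strand at chr2:113542071-113542320 and chr2:113594357-113594606. IL1R1 and IL1R2 lie on the plus strand at chr2:102758956-102759205 and chr2:102608172-102608421. The sequences are given 5′ to 3′ on the gene's strand, with motif matches in capitals.
IL1A: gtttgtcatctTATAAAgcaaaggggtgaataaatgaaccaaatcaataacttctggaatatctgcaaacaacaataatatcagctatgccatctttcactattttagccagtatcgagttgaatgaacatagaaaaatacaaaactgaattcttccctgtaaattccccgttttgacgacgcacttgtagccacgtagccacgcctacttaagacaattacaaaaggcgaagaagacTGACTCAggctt
IL1B: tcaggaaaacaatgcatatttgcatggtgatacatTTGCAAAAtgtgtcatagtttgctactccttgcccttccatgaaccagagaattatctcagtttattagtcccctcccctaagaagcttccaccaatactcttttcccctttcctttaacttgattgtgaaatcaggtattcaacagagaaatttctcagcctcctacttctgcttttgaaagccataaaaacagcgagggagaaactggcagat
IL1R1: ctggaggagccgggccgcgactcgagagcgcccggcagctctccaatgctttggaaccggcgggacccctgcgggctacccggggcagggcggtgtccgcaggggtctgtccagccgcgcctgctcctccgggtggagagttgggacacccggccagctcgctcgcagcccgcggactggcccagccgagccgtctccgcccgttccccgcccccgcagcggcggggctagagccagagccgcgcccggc
IL1R2: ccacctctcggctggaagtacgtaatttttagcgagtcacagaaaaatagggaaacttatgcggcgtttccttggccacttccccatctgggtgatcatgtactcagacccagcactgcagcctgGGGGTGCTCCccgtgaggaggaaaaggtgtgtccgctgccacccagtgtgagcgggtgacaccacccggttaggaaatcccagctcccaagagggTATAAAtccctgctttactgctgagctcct

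Both strands were searched for AP-1 (TGANTCA), C/EBP (TTGCNNAA), the TATA box (TATAAA), the kappaB decamer and the p53 family half-site. The IL1A window held an AP-1 match 12 to 6 bases before the start and a TATA box match 239 to 234 bases before it. The IL1B window held a C/EBP match 215 to 208 bases before the start. The IL1R2 window held a TATA box match 30 to 25 bases before the start and a kappaB match 125 to 116 bases before it, and none of the matches overlapped. None of the 5 motifs was found in the IL1R1 window, whose GC content was 76.8%, against 37.6% for IL1A, 40% for IL1B, 55.2% for IL1R2 and a median of 58.0% over all windows. Of 35093 RefSeq windows of this length, 6.57% held AP-1, 9.05% C/EBP, 10.7% the TATA box, 9.95% the kappaB decamer and 5.58% the p53 family half-site. RefSeq gave 2 starts for IL1A, 4 for IL1R1 and 2 for IL1R2, and counts per gene do not show which start was used.

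Of the 9 genes, 8 passed the filter on low counts and 1, IL33, did not. With edgeR's quasi-likelihood test and Benjamini-Hochberg adjustment over 14901 genes, all 8 were called at 0.05, 4 higher and 4 lower in shp63. The same test called 74.0% of all tested genes, 36.9% higher and 37.1% lower, so a call by itself says little. Against a change of 1.5-fold, 4 of the 8 were called, against 22.7% of all tested genes. IL1R1 and IL1R2 were higher, as were 12.7% of tested genes, and IL1A and IL1B lower, as were 10%. For each of the 8, every shp63 library lay on 1 side of both shControl libraries, as for 86.4% of tested genes. The smallest two-sided p that exact permutation of 1 gene allows in this design is 0.333, so these calls rest on a spread shared across genes. In bulk RNA, fewer cells that express a gene and less of its RNA per cell cannot be told apart.

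**Figure D1:**
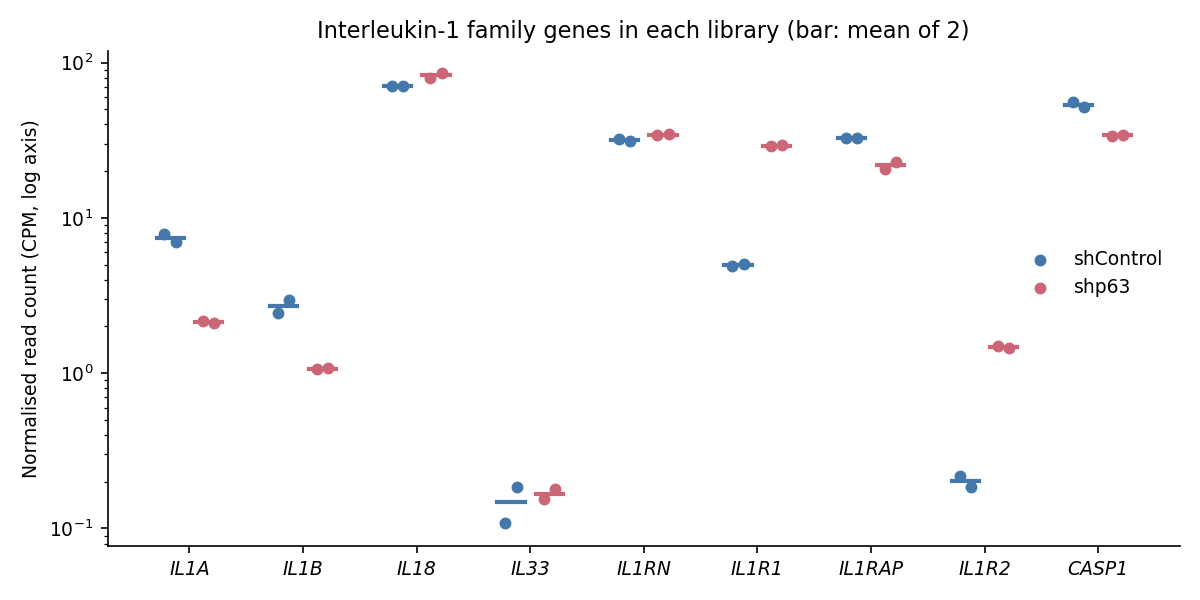
Normalised read count (CPM, log axis) of the 9 genes in each library, with blue points for shControl, red points for shp63 and a bar at the mean of 2 libraries. The groups are farthest apart for IL1R1 (4.96 and 29.1 CPM) and IL1R2 (0.201 and 1.48 CPM), and overlap for IL33.

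Interleukin-1 alpha transcripts fell. IL1A (chromosome 2, 113531502 to 113542070, minus strand, GRCh37) had 438 and 378 reads in shControl and 112 and 106 in shp63. Both shp63 libraries lay far below both shControl libraries. The mean went from 7.46 ± 0.614 to 2.13 ± 0.0274 CPM (SD, n = 2 each), 3.50-fold lower, with a log2 fold change of -1.81 (SE 0.113). The adjusted p was 2.53e-12 (edgeR, Benjamini-Hochberg), and only 2.05% of tested genes had a lower log2 fold change.

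IL1B, which encodes the secreted ligand interleukin-1 beta, fell with it. It lies 45.3 kb from IL1A on the same strand (chromosome 2, 113587328 to 113594393) and had 136 and 159 reads in shControl and 55 and 54 in shp63. The mean went from 2.70 ± 0.357 to 1.07 ± 0.0140 CPM (SD, n = 2 each), 2.53-fold lower. The log2 fold change was -1.34 (SE 0.167, adjusted p = 2.63e-07, edgeR with Benjamini-Hochberg). The shControl libraries were further apart than the shp63 libraries for both ligands, and the groups did not overlap.

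The ligand gene IL18 (chromosome 11, 112013976 to 112034819, minus strand) was the most abundant of the 9 and rose slightly. It had 3935 and 3817 reads in shControl and 4152 and 4281 in shp63. The mean went from 71.0 ± 0.0253 to 82.6 ± 3.94 CPM (SD, n = 2 each), 1.16-fold higher (log2 fold change 0.22, adjusted p = 7.50e-05, edgeR with Benjamini-Hochberg). Its 95% interval, 0.13 to 0.31 on the log2 scale, lay well inside 1.5-fold.

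IL33 (chromosome 9, 6215786 to 6257983, plus strand), the gene of a nuclear alarmin of barrier epithelia, was barely detected. It had 6 and 10 reads in shControl and 8 and 9 in shp63, or 16 and 17 in all. The groups overlapped, and no difference was detectable at this depth.

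The antagonist gene IL1RN (chromosome 2, 113856892 to 113891593, plus strand) stayed within a narrow range. It had 1792 and 1692 reads in shControl and 1775 and 1732 in shp63, which gave 31.9 ± 0.597 and 34.3 ± 0.300 CPM (SD, n = 2 each). The difference of 0.11 on the log2 scale (95% interval 0.02 to 0.19) was near the threshold, with an adjusted p of 0.0267 (edgeR, Benjamini-Hochberg). Its call was lost with DESeq2 in place of edgeR (adjusted p = 0.137), with plain library totals (adjusted p = 0.701, edgeR) and without any 1 of the 4 libraries (adjusted p from 0.0602 to 0.216, edgeR).

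Because IL1A and IL1B fell and IL1RN did not, the balance of their transcripts shifted. Per kilobase of the canonical transcript, IL1RN stood at 3.42 and 3.39 times the sum of IL1A and IL1B in the shControl libraries. In the shp63 libraries the ratio was 11.3 and 11.5. With the length of all annotated exons, an alternative added after the data were seen, the ratios were 1.83 and 1.89 in shControl and 6.44 and 6.58 in shp63. The ratio was higher in both shp63 libraries under either length.

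The signalling receptor gene IL1R1 (chromosome 2, 102681004 to 102796334, plus strand) rose. It had 271 reads in each shControl library and 1505 and 1468 in the shp63 libraries. The mean went from 4.96 ± 0.109 to 29.1 ± 0.246 CPM (SD, n = 2 each), 5.86-fold higher. The log2 fold change was 2.55 (SE 0.065, adjusted p = 3.36e-19, edgeR with Benjamini-Hochberg), above that of 98.8% of tested genes. An annotated antisense gene, IL1R1-AS1, shares 11 bases of the canonical exons.

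The decoy receptor gene IL1R2 (chromosome 2, 102608422 to 102645006, plus strand) rose from near the detection limit. It had 12 and 10 reads in shControl and 78 and 73 in shp63. The mean went from 0.201 ± 0.0215 to 1.48 ± 0.0307 CPM (SD, n = 2 each), 7.26-fold higher with a log2 fold change of 2.86 (SE 0.267, adjusted p = 2.68e-09, edgeR with Benjamini-Hochberg). The low shControl counts leave its 95% interval wide, from 2.30 to 3.42. Decoy transcripts remained the scarcer kind: per kilobase, IL1R2 stood at 0.157 and 0.131 times IL1R1 in shControl and at 0.184 and 0.176 times in shp63.

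The accessory receptor gene IL1RAP (chromosome 3, 190231840 to 190377539, plus strand) moved the other way from IL1R1. It had 1812 and 1746 reads in shControl and 1075 and 1148 in shp63. The mean went from 32.6 ± 0.142 to 21.8 ± 1.58 CPM (SD, n = 2 each), with a log2 fold change of -0.58 (SE 0.052, adjusted p = 1.09e-09, edgeR with Benjamini-Hochberg). Per kilobase, IL1RAP stood at 7.30 and 7.04 times IL1R1 in the shControl libraries and at 0.780 and 0.854 times in the shp63 libraries. With the length of all annotated exons these ratios were 4.25 and 4.09 in shControl and 0.454 and 0.497 in shp63. The more abundant of these partner transcripts was thus IL1RAP in shControl and IL1R1 in shp63 under either length. Counts per gene do not show which transcripts were present, so the order in shp63 rests on these lengths.

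The protease gene CASP1 (chromosome 11, 104896124 to 104905977, minus strand) fell. It had 3090 and 2770 reads in shControl and 1755 and 1722 in shp63, or 53.6 ± 2.97 and 34.0 ± 0.430 CPM (SD, n = 2 each). It was 1.58-fold lower with a log2 fold change of -0.66 (SE 0.043, adjusted p = 5.07e-12, edgeR with Benjamini-Hochberg). Against a change of 1.5-fold the adjusted p was 0.0668 (edgeR), just short of a call; with plain library totals, without shControl replicate 2 or with crossed replicate numbers as a block it was called. CASP1 shares sequence with its neighbour CARD16, so the split of reads between them is uncertain.

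**Figure D2:**
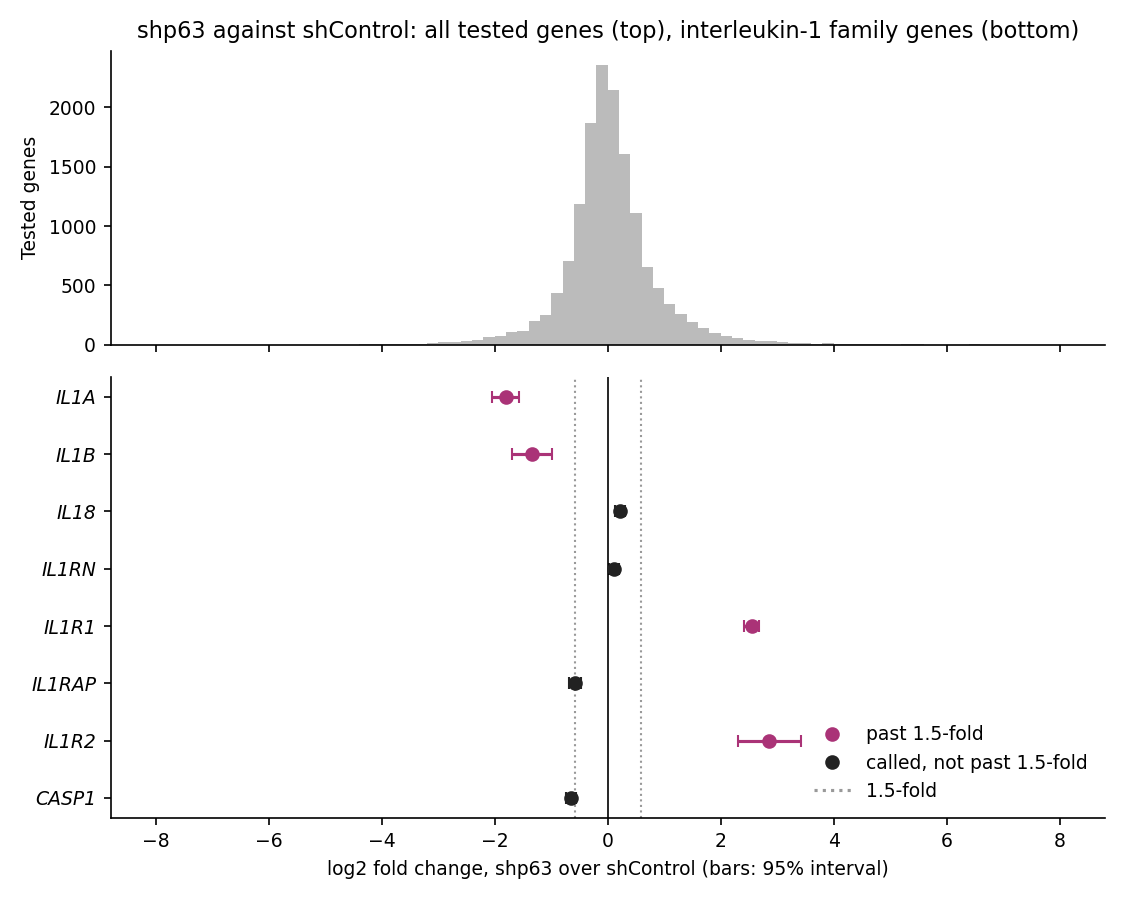
Log2 fold change of shp63 over shControl. The top panel is a histogram of all 14901 tested genes, and the bottom panel gives the 8 tested genes with 95% intervals, in magenta where the change passed the test against 1.5-fold and black elsewhere, with dotted lines at 1.5-fold. IL1R1 (2.55) and IL1R2 (2.86) lie in the right tail and IL1A (-1.81) and IL1B (-1.34) in the left.

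Levels between genes were compared only per kilobase of the canonical transcript. In shControl the order was IL18 (63.7 CPM per kb), CASP1 (26.9), IL1RN (18.7), IL1RAP (6.87), IL1A (3.70), IL1B (1.80), IL1R1 (0.958), IL1R2 (0.138) and IL33 (0.0548). In shp63 it was IL18 (74.1 CPM per kb), IL1RN (20.1), CASP1 (17.1), IL1R1 (5.61), IL1RAP (4.59), IL1A (1.06), IL1R2 (1.01), IL1B (0.708) and IL33 (0.0621). IL1R1 went from rank 7 to rank 4 and IL1B from rank 6 to rank 8. The libraries of neighbouring genes did not overlap within a group, although IL1A and IL1R2 came close in shp63. With all annotated exons as the length, IL1A ranked above IL1RAP in shControl.

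IL1R1 and IL1R2 sit in a tandem array of receptor genes on chromosome 2, and IL1A, IL1B and IL1RN in an array of ligand genes on the same chromosome. Of all tested genes 36.9% were higher and 37.1% lower, and the arrays, chosen after values were seen, were not tested against each other. In the receptor array, from IL1R2 to IL18RAP, 4 of 6 genes were tested and all 4 rose. Beside IL1R2 and IL1R1 these were IL1RL1, the receptor gene for interleukin-33, and IL18R1, a receptor gene for interleukin-18. The array was chosen around IL1R2 and IL1R1, whose rise was already known. IL1RL1 would not have passed the low-count filter without its shp63 libraries. The count of genes that rose is therefore no result about the array. IL1RL1 went from 5 and 10 reads to 174 and 144, a log2 fold change of 4.48 (SE 0.260), which became 4.04 without shControl replicate 1 and 5.06 without shControl replicate 2. IL18R1 went from 184 and 130 reads to 466 and 451, 3.12-fold higher. Exons of IL18R1 overlap 3.05% of the canonical IL1RL1 transcript on the same strand. IL1RL2 and IL18RAP had 6 reads or fewer in each library. On the flanks, RFX8 rose 6.69-fold from 12 and 20 reads to 122 and 80, and MAP4K4 rose 1.52-fold. SLC9A4 rose 1.73-fold from 12 and 15 reads to 25 and 19, a call lost under 8 alternatives, and SLC9A2 had 16 and 17 reads and then 22 and 16.

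In the ligand array, from IL1A to IL1RN, 4 of 9 genes were tested. IL1A, IL1B and IL36RN, an antagonist of the interleukin-36 receptor, fell, while IL1RN was slightly higher as given above. The array was chosen around IL1A, IL1B and IL1RN with their values known, so the count is no result about it. IL36RN went from 292 and 291 reads to 229 and 205, 1.26-fold lower (adjusted p = 0.00577, edgeR with Benjamini-Hochberg). That call was lost with DESeq2 (adjusted p = 0.0748) and without shp63 replicate 2 (adjusted p = 0.0504, edgeR). The agonist genes IL36A, IL36B and IL36G had at most 1 read in a library. The flanking gene CKAP2L, which encodes a spindle protein, fell 4.21-fold, and PSD4 on the other side rose 1.15-fold. The outer flanking genes were not called: SLC20A1 was at 54.2 and 56.9 CPM and PAX8 at 3.03 and 2.70 CPM.

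**Figure D3:**
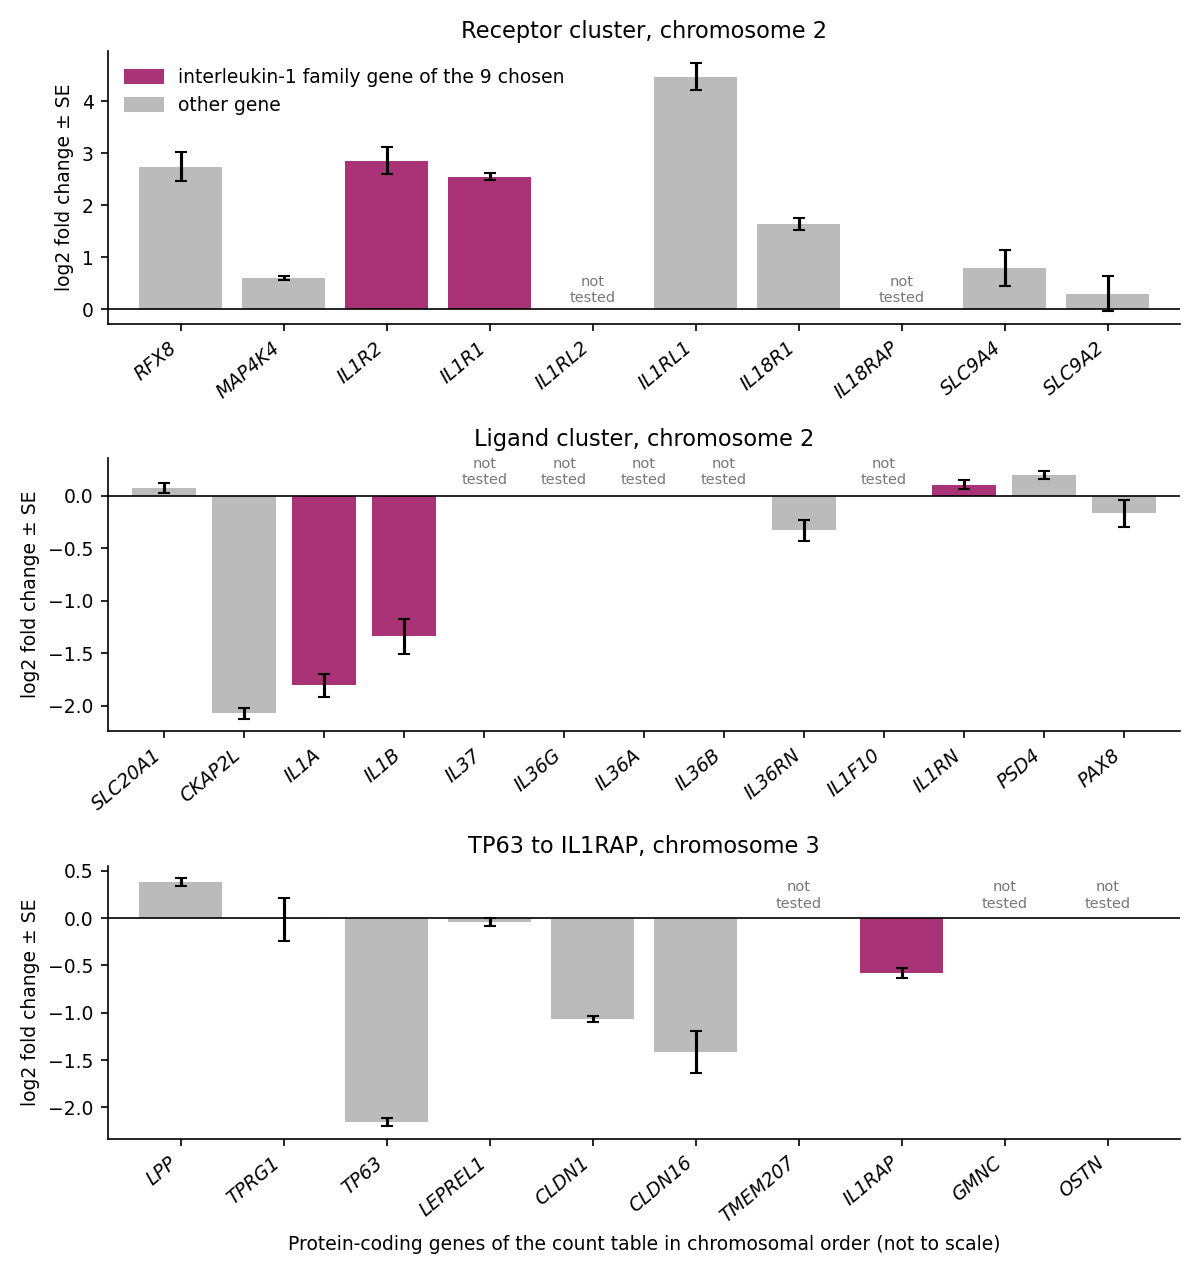
Log2 fold change (bars) with its standard error in 3 stretches of neighbouring protein-coding genes in chromosomal order, not to scale, with the genes under study in magenta and genes under the count filter marked as not tested. Every tested gene from IL1R2 to IL18RAP is above 0, with IL1RL1 tested only through its shp63 libraries. That stretch was chosen around IL1R2 and IL1R1 after values were seen. IL1A (-1.81) and IL1B (-1.34) stand beside CKAP2L (-2.07).

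IL1RAP lies 617 kb beyond the end of TP63 on chromosome 3. The stretches described next were likewise chosen after values were seen. Of the 6 genes from TP63 to IL1RAP, 5 were tested and 4 fell, against 37.1% of all tested genes. Those that fell include TP63, the target of the hairpin, and IL1RAP, which set the stretch, so the count is no result about the stretch. On the flanks, LPP rose 1.30-fold, TPRG1 was at 0.870 and 0.864 CPM, and GMNC and OSTN had no reads. CLDN1, encoding a tight junction claudin, went from 219 to 105 CPM and CLDN16 from 1.44 to 0.539 CPM, while LEPREL1 was at 64.7 and 62.8 CPM. In the caspase array on chromosome 11, CASP4 and CARD16 rose and CASP1 fell, while 36.9% of all tested genes were higher and 37.1% lower. The split of reads between CASP1 and CARD16 is uncertain, as given above. CASP4, an inflammatory caspase gene, went from 4910 and 4635 reads to 5734 and 5854, and CARD16, an inhibitor of CASP1, from 285 and 322 to 437 and 426.

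Genes around the pathway were described by lists written from general knowledge. Of 14 other interleukin-1 family ligand and receptor genes, 5 were tested, 4 higher and 1 lower. Of all tested genes 36.9% were higher and 37.1% lower. IL1RL1 and IL18R1 were already counted in the receptor array, and IL1RL1 passed the low-count filter only through shp63. The lower gene was IL36RN, whose call was lost with DESeq2 as given above. The 4 higher genes were IL1RL1, IL18R1, IL18BP and SIGIRR. SIGIRR, an inhibitory receptor gene, went from 1429 and 1377 reads to 2479 and 2224 (1.79-fold higher). The median log2 fold change of the 5 was 0.84, against -0.01 over all tested genes. IL18BP, the soluble inhibitor of interleukin-18, was 1.43-fold higher.

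Of 16 inflammasome and processing genes, 10 were tested, with 4 higher, 4 lower and a median log2 fold change of -0.05. These shares were near those of all tested genes (36.9% higher and 37.1% lower), so the counts are no result about the list. GSDMD, the gene of the pore protein of pyroptosis, rose 1.33-fold from 76.5 and 74.6 to 101 and 99.7 CPM, and CASP4 rose 1.30-fold. NLRP1, an epithelial inflammasome sensor gene, fell 3.27-fold from 85 and 87 reads to 29 and 20. DFNA5, now called GSDME and related to GSDMD, fell 1.79-fold from 1900 and 1834 reads to 948 and 1004. NLRP3 had 8 reads or fewer in each library.

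Of 19 receptor signalling genes, 18 were tested, with 5 higher, 8 lower and a median log2 fold change of -0.06. The called share, 72.2%, was near the 74.0% of all tested genes. The count of lower genes was 5 with DESeq2 and 11 with plain library totals. MYD88, the adaptor, rose 1.43-fold from 3754 and 3630 reads to 5117 and 4759, and TOLLIP, an inhibitor of IRAK signalling, rose 1.33-fold. PELI2, a ubiquitin ligase gene of the IRAK complex, fell 2.78-fold from 524 and 465 reads to 166 and 167. It was the 1 gene of this list past the 1.5-fold test. UBE2N, a ubiquitin-conjugating enzyme gene, fell 1.24-fold.

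Of 34 transcripts known to be induced by interleukin-1, 24 were tested, with 22 higher, 1 lower and a median log2 fold change of 1.34, against 36.9% higher and a median of -0.01 over all tested genes. Past 1.5-fold, 16 were higher, against 12.7% of all tested genes. LCN2, encoding lipocalin-2, rose 4.57-fold from 228 and 232 to 1057 and 1044 CPM. IER3 rose 4.90-fold from 38.3 and 38.9 to 188 and 190 CPM. MMP1, a collagenase gene, was the one that fell, from 51 and 58 reads to 6 and 8. It passed the low-count filter only through shControl, so its fall is no independent evidence. CCL20 had 35 and 35 reads and then 33 and 28. IL6 had 8 reads or fewer in each library. These genes respond to many stimuli, and the list was written with earlier results of these data known, so its direction is no independent evidence.

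**Figure D4:**
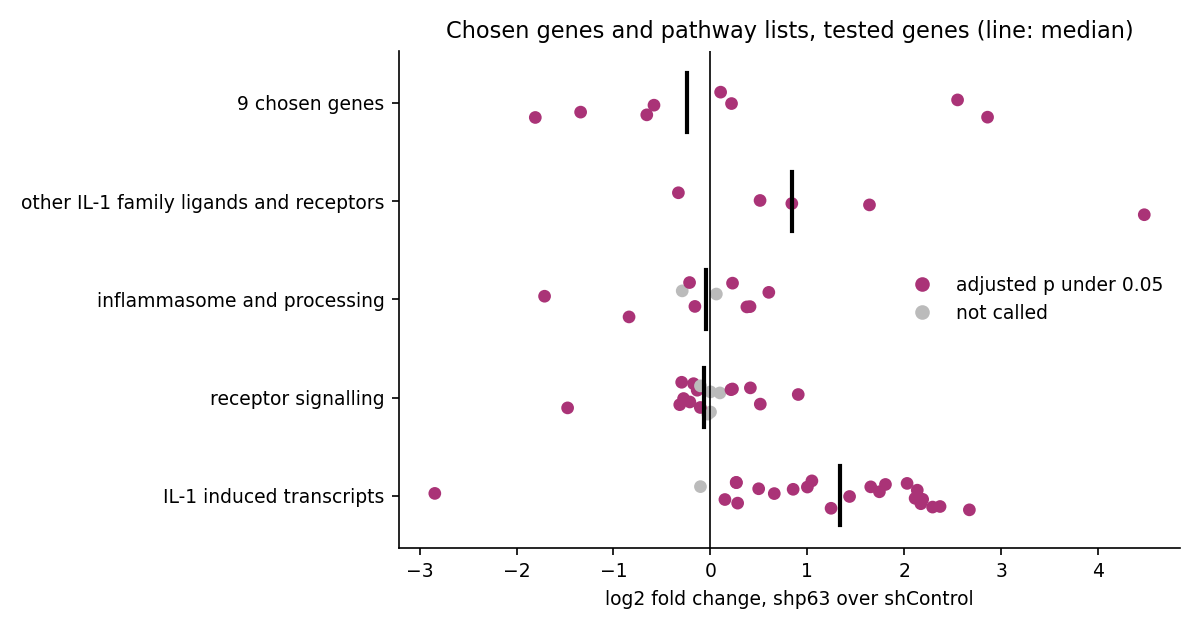
Log2 fold change of shp63 over shControl for the tested genes of 5 lists, with each point a gene, magenta at an adjusted p under 0.05, and a black line at the list's median. The interleukin-1 induced list has a median of 1.34 and the receptor signalling list one of -0.06.

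Interleukin-1 genes are also expressed by myeloid cells. Of 16 leukocyte markers, 6 were tested, of which 4 rose (CD14, CD68, CSF1R and LYZ), 1 fell (ITGAM, 2.53-fold) and 1 was not called (FCER1G). Of all tested genes 36.9% were higher and 37.1% lower. LYZ had 1 read in each shControl library and 33 and 21 in shp63. It passed the low-count filter only through shp63, so its rise is no independent evidence. The summed level of the 16 was 16.5 and 15.2 CPM in shControl and 85.6 and 82.1 CPM in shp63, most of it from CD14 and CD68. PTPRC, which defines leukocytes, had 6 and 4 reads in shControl and 8 and 6 in shp63, and AIF1, TYROBP and CD163 had none. The summed level of 7 mesothelial markers was 415 and 440 CPM in shControl and 677 and 684 CPM in shp63, and that of 6 endothelial markers 59.9 and 65.0 CPM, then 191 and 190 CPM. The first sum rested on MSLN and UPK3B, while BNC1 fell 1.68-fold and WT1 and CALB2 had 8 reads or fewer in each library. The second rested on CDH5, while PECAM1 rose from 1.04 to 1.89 CPM and VWF fell 3.57-fold. The 8 fibroblast markers summed to 97.3 and 102 CPM, then 75.3 and 67.1 CPM, nearly all from COL1A1. The part of any of these in the interleukin-1 results was not tested.

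Genes whose pattern over the 4 libraries was most like that of a member were sought among 12928 genes of at least 1 CPM, by the root mean square difference of centred log2 CPM. For IL1A the nearest were VAV3 (0.00971), GPSM2 (0.0226) and AKR1B10 (0.0249), which fell 3.42-fold, 3.51-fold and 3.45-fold. IL1R2 rose more than IL1R1 but its mean over the 4 libraries lay under the minimum of 1 CPM, so IL1R1 was taken for the rise. For IL1R1 the nearest were DUSP4 (0.0103), GALNT12 (0.0308) and ECM1 (0.0323), which rose 5.84-fold, 5.91-fold and 5.67-fold. Over 4 libraries in 2 groups, such likeness is mostly a matching fold change.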

How the data were processed

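Polyadenylated RNA of 4 H226 cultures, 2 per group, was sequenced from a stranded mRNA library. Per the series' design text the authors aligned reads to GRCh37 (hg19) with TopHat2 and counted them per gene with HTSeq, in versions 2.0.13 and 0.6.1 per the submitters' processing notes; the same text names DESeq2 as their test. The deposited values are raw read counts per gene symbol for 25369 genes, with no normalization by the authors. The annotation and the strand option used with HTSeq are not given in the sources used here. Columns were matched to samples by name.

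The model was edgeR's (version 4.0.16, R 4.3.3): TMM factors, filterByExpr with its defaults (minimum count 10, minimum total 15; 14901 genes kept), and a robust quasi-likelihood fit with group as the only term to all 4 libraries. Benjamini-Hochberg adjustment ran over all tested genes, with calls at an adjusted p under 0.05, and glmTreat tested against a 1.5-fold change. The test was first tried on simulated counts with known changes. Standard errors come from the fold change and its F statistic. Errors beside CPM are standard deviations over 2 libraries, and p-values measure the spread between these cultures only. Alternatives were RLE factors, library totals, no filter, a filter of 1 CPM in 2 libraries, DESeq2 1.42.0, limma-voom (limma 3.58.1), the replicate number as a block and leaving out each library.

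The 9 genes and the gene lists were chosen with earlier results of these data known. The rule for named genes took the 9, TP63, up to 2 genes per direction and list of smallest adjusted p with a mean of at least 1 CPM, and the 3 genes nearest in pattern to the member that fell most and the one that rose most among members of at least 1 CPM (IL1A and IL1R1). Other genes named were chosen after their values were seen. Positions and lengths are from GENCODE v44 lifted to GRCh37, which may not be the authors' annotation. RefSeq windows were found for 7 of the 9 genes, and those of 4 are printed.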

Additional observations from a re-analysis of the deposited data

How the results depend on the processing

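Over 12 alternatives, 7 of the 8 tested genes kept their direction and their call. IL1RN kept its direction but lost its call under 6: its log2 fold change was 0.0178 with library totals, which move the median of all genes from -0.01 to -0.10, 0.112 with DESeq2, and 0.0784 to 0.120 when a library was left out. The cause was not tested. The count of genes past 1.5-fold stayed at 2 higher and was 2 or 3 lower, the third being CASP1. In the list of other interleukin-1 family genes the count of lower genes was 2 with no low-count filter, 0 with DESeq2 and from 0 to 1 when a library was left out. Of receptor signalling genes 8 were lower, against 5 with DESeq2 and 11 with library totals. The 1 CPM filter gave 0 lower interleukin-1 induced genes, since MMP1 was then not tested. SLC9A4, PYCARD and NFKBIA lost their calls under at least 1 alternative. The labels link same-numbered replicates of the groups only by their number. The deviations of these replicates correlated at -0.112, and whether numbers were crossed between the groups was not tested. The replicate block gave 5408 higher and 5450 lower genes, against 5499 and 5534 without it, and the crossed pairing, added after the data were seen, gave 5659 and 5728; neither pairing changed a call of the 8 genes, except that the crossed pairing took CASP1 past the 1.5-fold test, and the block ended the call of SLC9A4. Depth limits IL33, with 16 and 17 reads per group, and widens the interval of IL1R2.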
